A study of Homo sapiens with 6 samples.

Results

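The genes described here are TNF, the cytokine tumor necrosis factor-α, and 9 receptors of its superfamily: TNFRSF1A (TNFR1), TNFRSF1B (TNFR2), TNFRSF10A, TNFRSF10B, TNFRSF10D, TNFRSF12A, TNFRSF21, LTBR and FAS. They were chosen by symbol, as the TNF, lymphotoxin and death receptor genes of the series, and all 10 had a row among the 30735 genes of the deposited files. PANC-1 cells, a long-established human line of pancreatic ductal adenocarcinoma, were grown in DMEM with fetal bovine serum and transfected in serum-free medium with a lipid reagent. RNA was sequenced from 3 samples that received CD73 siRNA and 3 that received negative control siRNA, numbered 1 to 3 in each group. The study describes the CD73 samples as separate knockdowns and lists a single CD73 siRNA product, whose sequence is not given in the sources used here. All samples come from 1 cell line, and p-values measure the spread between these samples. CD73, encoded by NT5E, is a cell surface enzyme that makes adenosine.

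TNF is made as a membrane protein, is shed by the protease ADAM17 and binds TNFR1 and TNFR2. TNFR1, FAS, TNFRSF10A and TNFRSF10B (the TRAIL receptors DR4 and DR5) and TNFRSF21 (DR6) carry a cytoplasmic death domain, through which adaptors such as TRADD or FADD bind. TNFR2, LTBR and TNFRSF12A (Fn14) have none and bind TRAF proteins instead, and TNFRSF10D binds TRAIL with an incomplete death domain. These pathways can lead to NF-κB and MAP kinase signaling or, when caspase-8 is activated, to apoptosis.

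Library totals lay between 15009113 and 16836207 reads (or read pairs). Values are RPKM, reads scaled to merged exon length and library total, and can be compared between genes. NT5E, the targeted gene, had 3.36, 6.85 and 8.22 RPKM in CD73 siRNA replicates 1, 2 and 3 and 13.96, 13.87 and 17.14 RPKM in the controls, so that 24.1%, 49.4% and 47.9% of the control level of the same number remained. The log2 difference of NT5E was -1.23 (standard error 0.27), with an adjusted p in limma of 0.464. Leukocyte markers were all under 0.5 RPKM in every sample. The summed level of 6 ductal and epithelial markers was 71.4 to 102.1 RPKM in CD73 siRNA cells and 135.8 to 253.5 RPKM in controls. Most of the sum came from KRT8 and KRT18, which were separated between the groups at 39.2% and 61.6% of the control mean. KRT19, CDH1, EPCAM and KRT7 overlapped between the groups, at 79.2%, 83.5%, 101.9% and 37.2% of the control mean. KRT7 was under 0.5 RPKM throughout. The part of the keratin difference in the results on TNF and its receptors was not tested. Fewer cells of a kind and less RNA per cell cannot be told apart in such bulk samples.

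Promoter sequences are given for the ligand and for receptors whose levels are described below, to show the letters near their start sites. RefSeq (GRCh38.p14) gave windows of 300 bases around the start, mostly upstream, for 6 of the 10 genes. Windows were searched on both strands for the NF-κB-like letters GGGNNNNNCC, the AP-1 letters TGANTCA and the TATA box TATAAA, which occurred in 58.7%, 7.71% and 11.5% of 35116 promoter windows of 300 bases. Capitals mark the match in each line, written 5′ to 3′ on the strand of the gene.
TNF, NF-κB-like letters, first base 101 bases before the start, forward strand, chr6:31575454-31575483: atgagctcatGGGTTTCTCCaccaaggaag
TNF, TATA box, first base 29 bases before the start, forward strand, chr6:31575526-31575551: cccagggacaTATAAAggcagttgtt
TNFRSF1B, NF-κB-like letters, first base 180 bases before the start, forward strand, chr1:12166801-12166830: aggaggttgaGGGGTCACCCgagtgctggg
FAS, AP-1 letters, first base 242 bases before the start of 1 of its 3 windows, forward strand, chr10:88990548-88990572: caagttgcTGAATCAatggagccct
The TNFRSF1B window held neither TATAAA nor TGANTCA, and its NF-κB-like pattern matched on both strands at that place, with overlapping matches on the other strand 63 and 59 bases before the start. The AP-1 letters of FAS also matched on both strands, and its 3 windows held 7 NF-κB-like matches as well, counting each strand. The windows of TNFRSF21 and LTBR held 2 and 3 NF-κB-like matches and neither of the other motifs. The window of TNFRSF1A held none of the 3 motifs. A match is a description of letters, and the NF-κB-like pattern is found in most promoters.

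With LTBR counted, the members spanned more than 3 orders of magnitude in the control cells. TNFRSF12A was highest, at 73.8 ± 23.0 RPKM (SD, n = 3), and TNFRSF21 followed at 40.4 ± 11.0 RPKM (SD, n = 3), with ranges that overlapped. TNFRSF1A, at 15.1 ± 2.32 RPKM (SD, n = 3), and TNFRSF10B, at 13.6 ± 2.75 RPKM (SD, n = 3), were not separated from each other, but every control value of this pair lay below those of TNFRSF21 and above those of the next genes. TNFRSF10A (4.81 ± 0.690 RPKM), TNFRSF10D (4.77 ± 1.05 RPKM), FAS (2.62 ± 1.55 RPKM) and TNFRSF1B (1.31 ± 0.704 RPKM; SD, n = 3 each) each overlapped with the next in this order. TNF itself had 0.674 ± 0.255 RPKM (SD, n = 3), overlapping with TNFRSF1B. LTBR, the lymphotoxin-β receptor, was at the bottom, with 3, 2 and 0 reads in the controls. Of its 6280 merged exon bases, only 422 are shared with SCNN1A on the opposite strand, and strand use in counting is not given. Whether the way of counting lowered the LTBR values was not tested.

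**Figure D1:**
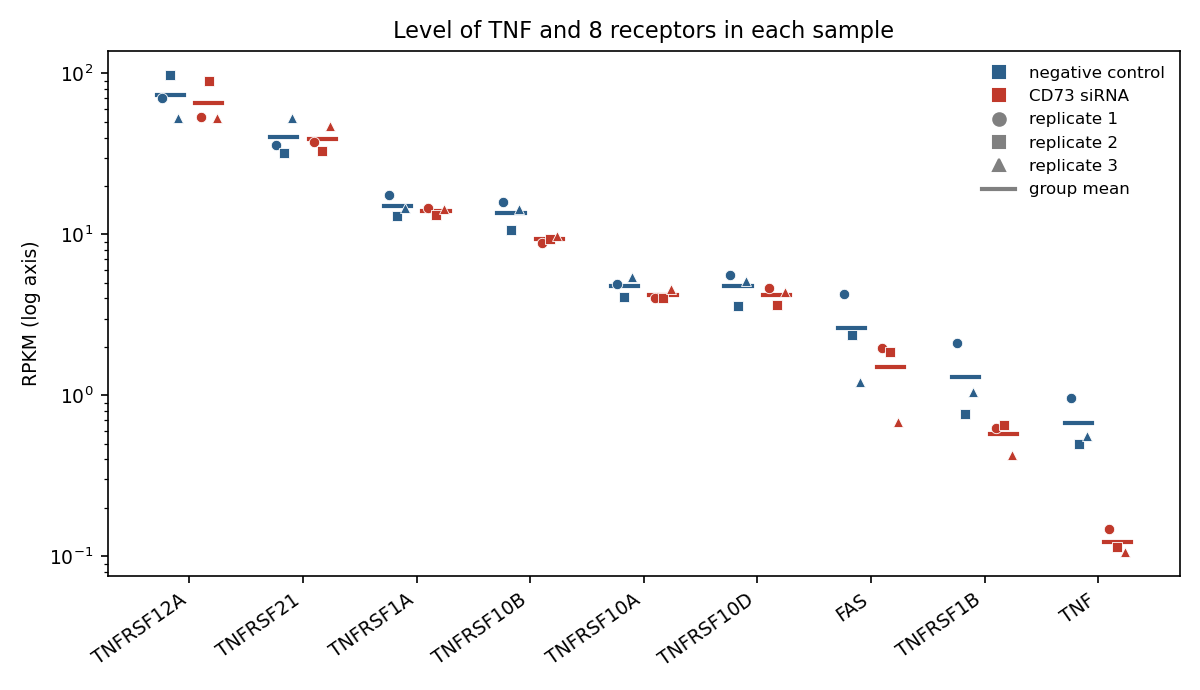
RPKM (log axis) of TNF and 8 receptors in each of the 6 samples, with colors for the groups, symbols for the replicate numbers and lines for the group means. The groups were separated for TNF, TNFRSF1B and TNFRSF10B and overlapped for the others. LTBR, at 0 to 0.0298 RPKM, is not drawn.

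The comparison of CD73 siRNA with negative control asks whether the ligand and its receptors changed with the knockdown. TNF was lower in the CD73 siRNA cells, at 18.2% of the control mean, TNFRSF1B at 43.7% and TNFRSF10B at 68.4%, and in these 3 genes every CD73 siRNA sample lay below every control. The other receptors overlapped between the groups, among them TNFRSF1A at 92.9% of the control mean. With limma on log2(RPKM + 1), over the 20780 genes with a mean of at least 0.1 RPKM, only TNF among the 9 members tested passed an unadjusted p of 0.01, the threshold of the study, and none passed an adjusted p of 0.05. At an unadjusted p under 0.05 there were 3 members, TNF, TNFRSF1B and TNFRSF10B, and 9.43% of all genes tested. Of all genes tested, 2.12% passed the unadjusted threshold, 0.866% in the lower and 1.25% in the higher direction, and 2 genes passed the adjusted one (0.00962%). These 2, named after their values were seen, were a Y RNA gene with 3 reads in each CD73 siRNA sample and 0 in each control, and ENSG00000227161 with 0 reads in each CD73 siRNA sample and 2 in each control. Groups that did not overlap, lower in CD73 siRNA, were found in 3 of the 9 members and in 6.86% of all genes tested, beside 8.51% that were higher and 15.4% in either direction. TNF was also the only member past the unadjusted threshold in the limma fit blocked by replicate number (2.99% of all genes, 1.23% lower and 1.76% higher) and with a pseudocount of 0.1 (2.18% of all genes, 0.938% lower).

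TNF (ENSG00000232810; GRCh38 chromosome 6, 31575567 to 31578336, forward strand) had 0.148, 0.114 and 0.106 RPKM in CD73 siRNA replicates 1, 2 and 3 and 0.967, 0.499 and 0.557 RPKM in the controls. All CD73 siRNA samples were low and close together, whereas control 1 stood above the other controls. These values rested on 4, 3 and 3 reads in the CD73 siRNA samples and 26, 13 and 14 in the controls. Pooled over libraries, 10 reads against 53 gave a ratio of 18.1% after scaling to library totals (95% exact interval 8.19% to 35.9%, for counting error only). The difference was -0.57 on the log2(RPKM + 1) scale (standard error 0.13, 95% interval -0.87 to -0.26), with p = 0.00295 and adjusted p = 0.464 from limma (exact permutation test, p = 0.1, the smallest that 3 samples against 3 allow). Adding 1 to values this low understates the change: with a pseudocount of 0.1 the difference was -1.75 (standard error 0.35). Without CD73 siRNA replicate 1, 2 or 3 the unadjusted p of limma was 0.0102, 0.0119 and 0.0121 for TNF, just above the threshold.

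TNFRSF1B (ENSG00000028137; GRCh38 chromosome 1, 12167003 to 12209228, forward strand), the TNF receptor without a death domain, had 0.628, 0.658 and 0.426 RPKM in CD73 siRNA replicates 1, 2 and 3. In the controls it had 2.10, 0.769 and 1.04 RPKM. The groups did not overlap, but the lowest control, number 2, came close to its CD73 siRNA partner: 29.9%, 85.5% and 40.8% of the control level remained within numbers 1, 2 and 3. Read numbers were 27 to 39 in CD73 siRNA cells and 45 to 127 in controls, and the pooled ratio was 43.1% (95% exact interval 33.9% to 54.6%, for counting error only). The log2 difference was -0.51 (standard error 0.21, 95% interval -1.02 to -0.01) and did not pass the threshold, with p = 0.0461 and adjusted p = 0.527 from limma (exact permutation test, p = 0.1). As for TNF, the added 1 understates the change, and with a pseudocount of 0.1 the log2 difference of TNFRSF1B was -0.97 (standard error 0.38). Control 1 weighed most: without it the log2 difference (pseudocount of 1) was -0.28. With 1 sample left out, the unadjusted p of limma was under 0.05 only without control 2 (0.0198, adjusted p = 0.295). In the other such fits the unadjusted p of limma for TNFRSF1B lay between 0.0750 and 0.141.

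TNFRSF1A (ENSG00000067182; GRCh38 chromosome 12, 6328757 to 6342114, reverse strand), the TNF receptor with a death domain, had 14.57, 13.10 and 14.44 RPKM in CD73 siRNA replicates 1, 2 and 3 and 17.61, 13.02 and 14.69 RPKM in the controls. The groups overlapped, and numbers 2 and 3 were nearly level, at 100.6% and 98.3% of their controls. The log2 difference was -0.09 (95% interval -0.38 to 0.20, adjusted p = 0.837 from limma), an interval that still allows a decrease by 0.38. Between 810 and 1131 reads per sample stood behind this gene. Without control 1 the sign turned, to 0.018.

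As both receptors bind TNF, their levels were also set against each other within each sample. TNFRSF1B made up 10.7%, 5.58% and 6.63% of the summed RPKM of both receptors in controls 1, 2 and 3 and 4.13%, 4.78% and 2.86% in the CD73 siRNA samples. TNFR1 transcripts were thus more abundant in all 6 samples. The mean share was 7.63 ± 2.69% in controls and 3.93 ± 0.975% in CD73 siRNA cells (SD, n = 3 each), a difference of -3.70 percentage points (exact two-sided permutation test, p = 0.1, the smallest possible). Within numbers 1, 2 and 3 the differences were -6.54, -0.797 and -3.77 percentage points, and without control 1 the mean difference was -2.18.

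**Figure D2:**
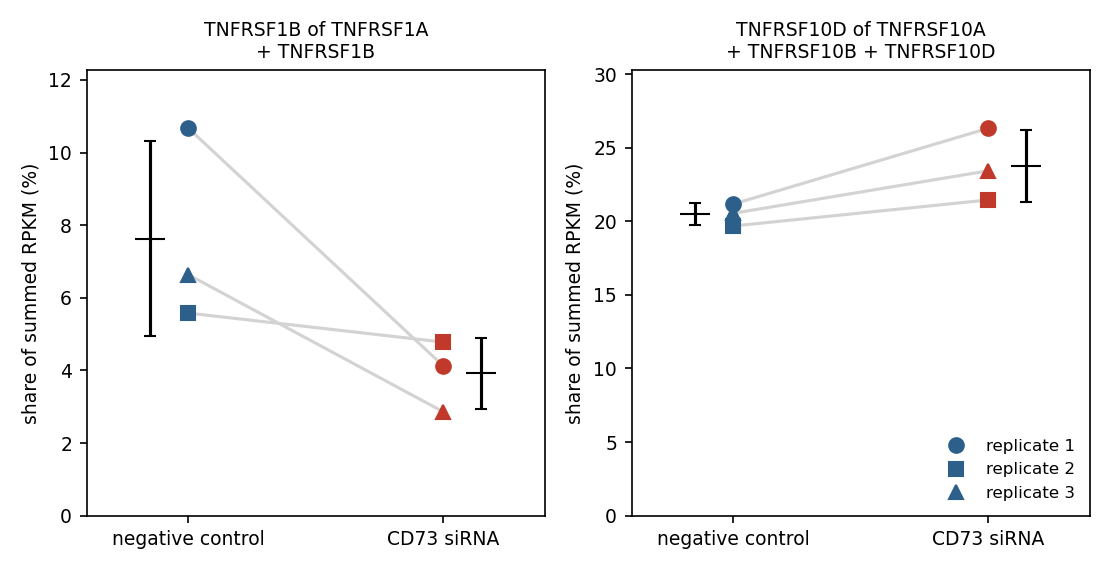
Share (%) of TNFRSF1B in the summed RPKM of TNFRSF1A and TNFRSF1B (left), and of TNFRSF10D in that of TNFRSF10A, TNFRSF10B and TNFRSF10D (right), in each sample. Grey lines join samples of the same number, and bars give the mean and SD of each group (n = 3). The TNFRSF1B share was lower, and the TNFRSF10D share higher, in the CD73 siRNA sample of each number.

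Among the TRAIL receptors, TNFRSF10B, which carries a death domain, differed most. It had 8.90, 9.32 and 9.73 RPKM in CD73 siRNA replicates 1, 2 and 3 and 15.92, 10.57 and 14.39 RPKM in the controls. The CD73 siRNA samples lay close together below all controls, of which number 2 was the lowest. The log2 difference was -0.49 (standard error 0.15, 95% interval -0.84 to -0.14) and narrowly missed the threshold, with p = 0.0134 and adjusted p = 0.488 from limma (exact permutation test, p = 0.1). Over fits that left out 1 sample the log2 difference of TNFRSF10B ran from -0.65 to -0.37. It was -0.37 without control 1 and -0.44 without control 3 (limma, unadjusted p of 0.0466 and 0.0561, adjusted p = 0.856 and 0.632). It was -0.65 without control 2 (limma, unadjusted p of 0.000773 and adjusted p = 0.230). It was also -0.65 without number 2 in both groups (limma, unadjusted p of 0.00427 and adjusted p = 0.491), an alternative chosen after seeing the data.

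TNFRSF10A, the other TRAIL receptor with a death domain, had 4.05, 4.03 and 4.59 RPKM in CD73 siRNA samples and 4.94, 4.06 and 5.42 RPKM in controls. TNFRSF10D, with the incomplete death domain, had 4.62, 3.65 and 4.38 RPKM in CD73 siRNA samples and 5.60, 3.59 and 5.12 RPKM in controls. Both overlapped between the groups, with log2 differences of -0.15 (95% interval -0.44 to 0.15) and -0.13 (95% interval -0.52 to 0.25). These genes are close relatives on chromosome 8, and how reads matching several of them were counted is not given in the sources used here. Strand use in counting is not given either. On the opposite strand, 266 exon bases of TNFRSF10A also belong to AC100861.1 and 224 to TNFRSF10A-AS1. Of TNFRSF10B, 67 exon bases belong to RHOBTB2 on the opposite strand.

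TNFRSF10D made up 21.2%, 19.7% and 20.5% of the summed RPKM of the 3 TRAIL receptors among the members in controls 1, 2 and 3. In the CD73 siRNA samples its share was 26.3%, 21.4% and 23.4%. The groups did not overlap, with means of 20.5 ± 0.749% and 23.7 ± 2.45% (SD, n = 3 each), a difference of 3.26 percentage points (exact two-sided permutation test, p = 0.1). Without CD73 siRNA replicate 1 the difference was 1.97 percentage points. The mean of TNFRSF10D itself was not higher in CD73 siRNA cells. TNFRSF10D, TNFRSF10A and TNFRSF10B were at 88.4%, 87.8% and 68.4% of their control means, so the share rose as TNFRSF10B fell most within the sum.

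FAS (ENSG00000026103; GRCh38 chromosome 10, 88990582 to 89015785, forward strand), the receptor of FAS ligand, had 1.96, 1.85 and 0.684 RPKM in CD73 siRNA replicates 1, 2 and 3 and 4.28, 2.38 and 1.21 RPKM in the controls. The groups overlapped because both samples numbered 3 were low, yet within each number the CD73 siRNA sample was the lower one, at 45.8%, 77.9% and 56.7% of its control. The log2 difference was -0.49 (95% interval -1.32 to 0.34), with an adjusted p of 0.705 from limma. In the blocked fit of limma the unadjusted p of FAS was 0.0219 and the adjusted p 0.306, so that it did not pass either way. Of its exon bases, 380 are shared with ACTA2 on the opposite strand.

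TNFRSF12A, the receptor of TWEAK, had 53.96, 89.56 and 52.87 RPKM in CD73 siRNA replicates 1, 2 and 3 and 70.14, 98.41 and 52.82 RPKM in the controls. Both samples numbered 2 were high, and those numbered 3 were level. The log2 difference was -0.17 (95% interval -0.81 to 0.48, adjusted p = 0.876 from limma). TNFRSF21, the death receptor DR6, had 37.34, 32.96 and 47.33 RPKM in CD73 siRNA samples and 35.97, 32.24 and 52.93 RPKM in controls, highest in both samples numbered 3. Its log2 difference was -0.02 (95% interval -0.51 to 0.46). LTBR had 1, 2 and 0 reads in the CD73 siRNA samples and 3, 2 and 0 in the controls, under the limit for testing, so no difference was detectable. A count of 0 allows up to 3 reads, or 0.0284 RPKM in CD73 siRNA replicate 3 and 0.0318 RPKM in control 3.

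**Figure D3:**
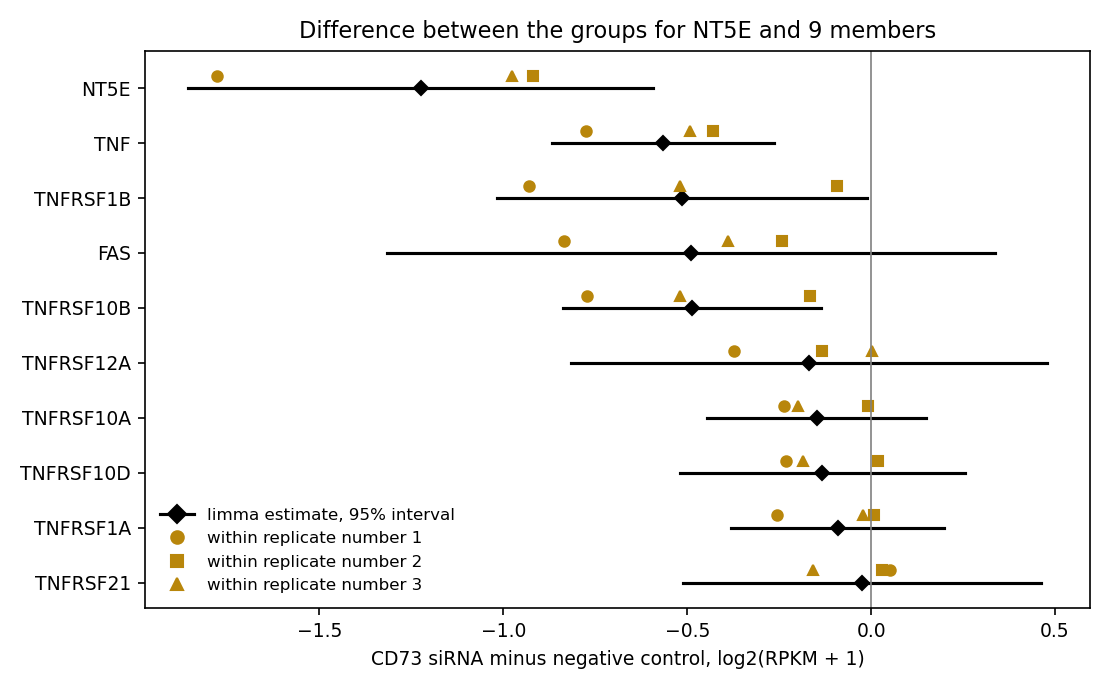
Difference between CD73 siRNA and negative control on the log2(RPKM + 1) scale for NT5E and 9 members. Diamonds and lines are the limma estimate and its 95% interval, and smaller symbols are the differences within replicate numbers 1, 2 and 3. The intervals of NT5E, TNF and TNFRSF10B lie below 0 and that of TNFRSF1B ends at -0.01. The difference of number 2 is the closest to 0 for every gene drawn except TNFRSF12A.

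All 9 members tested had a lower estimate after CD73 siRNA, with a median log2 difference of -0.17, beside 47.3% of all genes tested and a median of 0.01. In 5 of the 9 (TNF, TNFRSF1B, TNFRSF10A, TNFRSF10B and FAS) the CD73 siRNA sample was lower within each of the 3 replicate numbers, as in 20% of all genes tested. The sign turned for 3 members when single samples were left out: TNFRSF21 without CD73 siRNA replicate 1 or 2 or control 3, TNFRSF1A without control 1 and TNFRSF12A without control 2.

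The variation of each member was split between group and replicate number. For TNF, 84.0% of the sum of squares over the 6 samples on the log2(RPKM + 1) scale lay between the groups and 10.1% between the numbers. TNFRSF10B (67.7% between groups) and TNFRSF1B (51.0%) followed. In the other 6 members tested the number held more than the group, up to 96.5% for TNFRSF21 and 90.2% for TNFRSF12A. The number held more than the group in 69.3% of all genes tested, a share like that of the members. Since the number has 2 degrees of freedom and the group 1, the number holds more in most genes even where neither has an effect, and the split is given as a description.

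**Figure D4:**
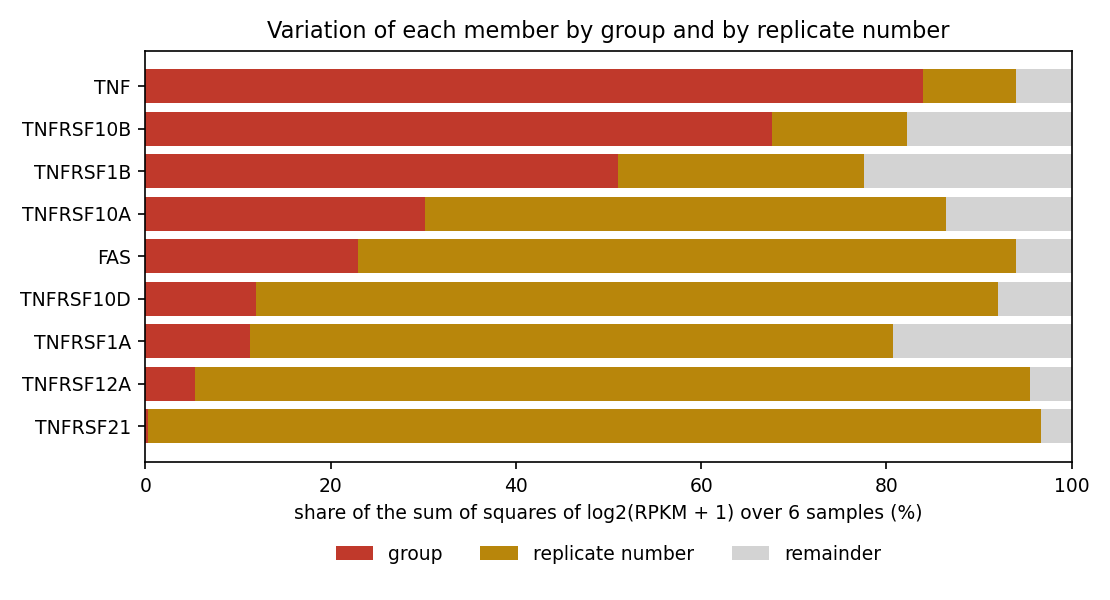
Share (%) of the sum of squares of log2(RPKM + 1) over the 6 samples that lay between the groups, between the replicate numbers and in the remainder, for each member tested. The group share fell from 84.0% for TNF to 0.230% for TNFRSF21.

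Most ligands of these receptors were scarce in the cells. TNFSF12 (TWEAK), the ligand of TNFRSF12A, was the exception among those named, with 2.95, 3.01 and 2.84 RPKM in CD73 siRNA samples and 3.52, 2.78 and 3.19 RPKM in controls, which overlapped. LTB, a chain of the ligand of LTBR, had 0.446, 1.24 and 0.310 RPKM in CD73 siRNA samples and 1.503, 1.007 and 0.738 RPKM in controls, also overlapping (log2 difference -0.35, adjusted p = 0.685 from limma). LTA had at most 4 reads and TNFSF10 (TRAIL) at most 2 in any sample, and the ligand of FAS was not analysed here. Of the 17 other ligands listed, 5 were tested and none passed an unadjusted p of 0.01 in limma. Of 20 other receptors listed, 13 were tested and likewise none passed, nor did any gene of both lists reach an unadjusted p under 0.05. Their median log2 differences were -0.13 and -0.08.

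Among the adaptor and death signaling genes, 21 of 23 were tested. At an unadjusted p below 0.01 in limma 1 was lower and 1 was higher, beside 0.866% and 1.25% of all genes tested. At an unadjusted p under 0.05 in limma there were 4, beside 9.43% of all genes tested, and none passed after adjustment. The median log2 difference was -0.07. TRAF3, an adaptor that restrains noncanonical NF-κB signaling, was higher, at 10.99 ± 0.991 against 7.39 ± 1.02 RPKM (SD, n = 3 each; adjusted p = 0.464 from limma). MAP3K14, the NF-κB inducing kinase that TRAF3 holds in check, was lower, at 14.9 ± 2.72 against 23.0 ± 3.88 RPKM (SD, n = 3 each; adjusted p = 0.464 from limma). With the replicate number as a block, MAP3K14 no longer passed, with an unadjusted p of 0.0156 and adjusted p = 0.306 from limma. TRAF3 still did, at an unadjusted p of 0.00155. TRAF3 no longer passed without CD73 siRNA replicate 2 or 3, and MAP3K14 without CD73 siRNA replicate 1 or 3 or control 1 or 2.

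The early TNF response genes had the lowest median of the 5 lists. Of 17 tested, 4 were lower at an unadjusted p below 0.01 (0.866% of all genes tested) and none was higher, with a median log2 difference of -0.44. Groups did not overlap for 8 lower genes and 1 higher gene of the 17, beside 6.86% and 8.51% of all genes tested. None passed after adjustment (10 were under an unadjusted p of 0.05, beside 9.43% of all genes tested), and the study picked the TNF pathway from these samples, so that the list is not independent evidence of its direction. The 4 were ICAM1, an adhesion molecule, NFKBIA, the NF-κB inhibitor IκBα, NFKB2, an NF-κB subunit, and TNFAIP2, a gene induced by TNF. ICAM1 had 8.96, 12.02 and 14.28 RPKM in CD73 siRNA samples and 38.49, 19.77 and 38.47 RPKM in controls (log2 difference -1.34, adjusted p = 0.464 from limma). NFKBIA had 19.19, 26.45 and 15.42 RPKM in CD73 siRNA samples and 60.98, 34.82 and 37.23 RPKM in controls (log2 difference -1.07, adjusted p = 0.464 from limma). TNFAIP2 had 4.82, 7.06 and 5.60 RPKM in CD73 siRNA samples and 17.67, 8.50 and 10.76 RPKM in controls (log2 difference -0.92, adjusted p = 0.464 from limma). NFKB2 had 19.68, 30.14 and 17.92 RPKM in CD73 siRNA samples and 54.38, 39.68 and 32.53 RPKM in controls (log2 difference -0.88, adjusted p = 0.464 from limma). Each of the 4 lost the unadjusted threshold in 4 or 5 of the 6 fits that left out 1 sample. KRT8 and KRT18 were also lower in the CD73 siRNA samples, without overlap of the groups. The means of KRT19, CDH1 and KRT7 were lower too, with overlap, and that of EPCAM was not. The part of these epithelial markers in the differences was not tested. With the replicate number as a block, TNFAIP2 had an unadjusted p of 0.0250 and did not pass. All 13 genes of TNF mRNA control and shedding were tested and none passed, nor reached an unadjusted p under 0.05 in limma, with a median log2 difference of -0.16. Among them ADAM17, the sheddase of TNF, had 11.5 ± 0.570 against 13.5 ± 1.13 RPKM (SD, n = 3 each), named here after its values were seen.

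**Figure D5:**
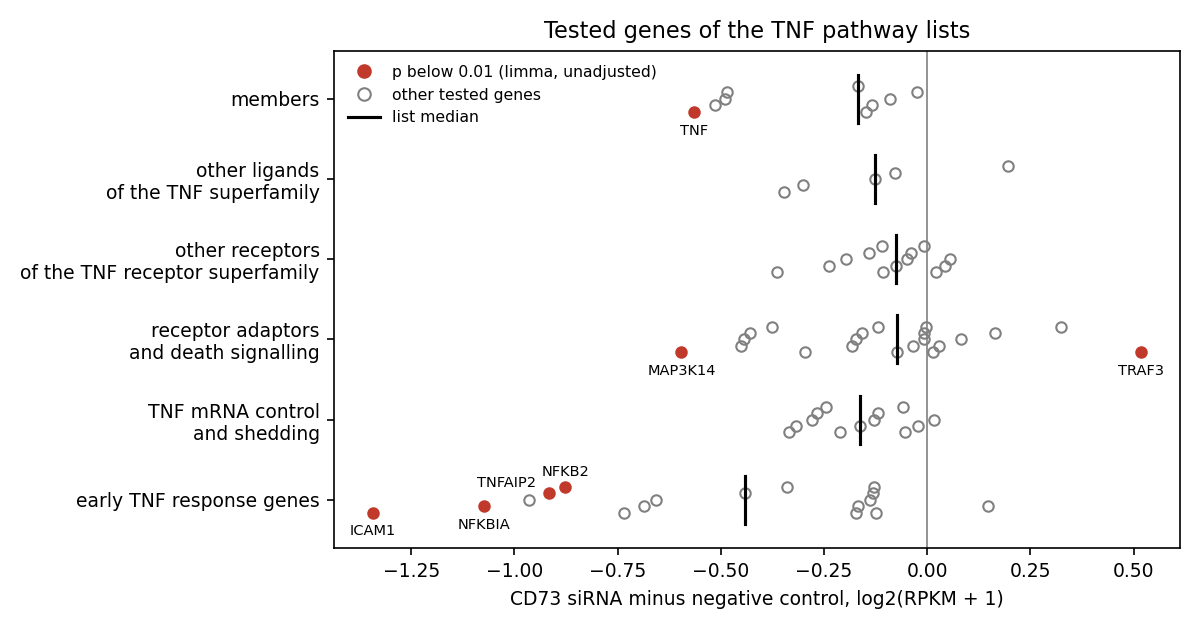
Difference between CD73 siRNA and negative control on the log2(RPKM + 1) scale for each tested gene of the members and of 5 pathway lists. Filled points passed an unadjusted p of 0.01 in limma, and vertical lines are list medians, which run from -0.44 for the early TNF response genes to -0.07 for the adaptors.

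Over the 6 samples, the 3 genes whose log2(RPKM + 1) values followed TNFRSF1B most closely, out of 12410 with a mean of at least 1 RPKM, were FAM43A (Pearson r = 0.996), RBM39 (r = 0.992) and AFMID (r = 0.990). These are descriptions over 6 samples that share the same 2 groups. Like TNFRSF1B, the 3 genes were highest in control 1 and lowest in CD73 siRNA replicate 3. FAM43A, for example, had 16.30 RPKM in control 1 and 4.36 RPKM in that sample.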

How the data were processed

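Per the submitters' processing notes, bcl2fastq, Bowtie2 2.2.3 and HTSeq 0.6.0 were used with hg38. Options, strand use and annotation are not given in the sources used here. The deposited files hold 1 value per Ensembl gene and sample, already normalized when deposited. That the deposited unit is RPKM is inferred, as the sources used here do not name it: scaled with merged exon lengths of GENCODE release 29, values were whole multiples (within 0.02 reads) of 1 step per sample in 95.1% to 95.2% of genes under 1000 reads. The step gave library totals and read numbers, which serve here only to show precision. Symbols were found for 30384 of 30735 identifiers.

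Genes with a mean of at least 0.1 RPKM over the 6 samples were compared on log2(RPKM + 1) with limma 3.58.1 in R 4.3.3 (trend, two-sided, Benjamini-Hochberg adjustment over all 20780 genes tested). The scripts were tested on simulated data. Members, gene lists and named genes (NT5E, all members, ligands of members, up to 5 genes per list past an unadjusted p of 0.01, and the 3 genes most like TNFRSF1B) were chosen with earlier results of these data known. Same-numbered samples deviated together from their group means over 12410 genes (r = 0.198, 0.470 and 0.562), so the numbers of the labels were taken as pairs in an alternative fit. Other alternatives were a pseudocount of 0.1, other filters, centring, quantile normalization, robust moderation and each replicate left out. The exact intervals of the pooled read ratios and the floor values cover counting error only. The limma intervals rest on the spread between samples. A listed adaptor or death signaling gene is not reported here and was left out of its list.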

Additional observations from a re-analysis of the deposited data

How the results depend on the processing

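TNF passed an unadjusted p of 0.01 in limma under 9 of 13 alternatives and kept its direction in all, with an adjusted p from 0.232 to 0.810. With at least 1 RPKM asked of 3 samples, TNF and TNFRSF1B were not tested, and 0 of 7 members passed. With that filter 1 member, TNFRSF10B, was under an unadjusted p of 0.05 in limma, beside 1519 of all 12527 genes tested. Leaving out single replicates gave 0 to 2 members and 195 to 742 genes at the unadjusted threshold (195 when the first CD73 siRNA sample and 742 when the second control was left out), and 0 genes after adjustment, with 1101 to 2802 under an unadjusted p of 0.05. After adjustment 0 genes passed in limma with no filter, 0 with the replicate block and 0 without number 2 in both groups, where 2088, 3184 and 2093 genes were under an unadjusted p of 0.05, against 2 and 1959. With the stricter filter 1 passed, and with robust moderation 1. Leaving out single replicates turned the sign of TNFRSF1A (-0.19 to 0.018), TNFRSF12A (-0.41 to 0.060) and TNFRSF21 (-0.17 to 0.18, with 0.0016 and 0.089 for the first and second CD73 siRNA sample left out). NT5E and TNF missed the unadjusted threshold without number 2 in both groups, and NT5E without any single control. The replicate block, which pairs samples by number, changed no call among the members at an unadjusted p of 0.01 or after adjustment. At an unadjusted p under 0.05 in limma the block gave 4 members against 3, with FAS added, beside 3184 against 1959 of all genes tested. The TNFRSF1B share differed by -4.73 to -2.18 and the TNFRSF10D share by 1.97 to 4.41 percentage points over single replicates left out. In the exact test of the block these shares differed by -3.70 and 3.26 percentage points (p = 0.25 each, the smallest that 3 pairs allow). With 3 to 26 reads, TNF is limited by depth. The causes of these changes were not tested.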
